A study of Homo sapiens with 9 samples.

Results

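Hairpin 32-9 is 1 of 4 short hairpin RNAs that were used against lncRNA-OIS1, a long non-coding RNA, in BJ fibroblasts. The genes described here had a value of 20, the lowest value of the table, in each of the other 8 libraries and a value above 40 with hairpin 32-9. Of 13745 genes listed, 133 met this, and 6 were left out by name: CDKN2A, both HOX genes, and 3 genes with no deposited symbol whose current name starts with LINC. That leaves 127 genes. Each was chosen on its values in all 9 libraries, so these values are a description and no test was made on them. Hairpin 32-9 also has a single library. With 1 library against 8, an exact permutation test of 1 gene could not go below p = 0.111.

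BJ cells are human fibroblasts, here immortalised with telomerase, in which the oncogene RASG12V was activated. A control library had a non-targeting hairpin (500), and its label names no RAS activation. The 2 senescent libraries had RASG12V active with the non-targeting hairpins 500 and 507, 1 each, and 4 libraries had RASG12V active with a hairpin against lncRNA-OIS1 (32-2, 32-3, 32-8 and 32-9). RASG12V was also active in 1 library with knockdown of p53 and in 1 with knockdown of BRD7. By the labels every library, the control included, comes from cells kept for 14 days with 4-OHT, whereas the series design describes the control cells as untreated, and which holds was not settled. The labels do not say whether the libraries came from separate cultures. No gene was matched to lncRNA-OIS1, so how far hairpin 32-9 lowered it was not checked. Every library holds the same set of values, with a median of 340.1 and 1375 genes at 20. The depth is therefore unknown, and the counting error of a value cannot be estimated. A library with 127 genes lifted off the floor must therefore hold others that moved onto it, and 200 genes were at 20 with hairpin 32-9 and above 20 in the other 8 libraries. Of these, 69 were above 40 in all 8. The label of the cells was checked on 18 mesenchymal and fibroblast markers with a row in the table, none of which was at 20 with hairpin 32-9. VIM, the filament protein of mesenchymal cells, had 91003.3 there and 39745.4 to 110360.7 elsewhere. PDGFRA, a growth factor receptor of fibroblasts, had 10273.4 against 4628.4 to 9428.1, and THY1, a fibroblast surface protein, 5617.9 against 2691.7 to 6989.6. Other markers of the list went both ways. CDH11 was lowest with hairpin 32-9, at 1982.8 against 2018.3 to 6206.2. S100A4 (6829) and CD44 (26190.7) were below every other library with RASG12V active and above the control. PRRX1, at 18103 against 2655.2 to 11855.2, and TWIST2, at 365.8 against 210.4 to 328.1, were highest.

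Some of the genes described below, such as CNTN1, NFASC, GAP43 and CADPS, are known from neurons. In a neuron, adhesion molecules such as contactins, neurofascin and NCAM stand on the axon surface and are held by ankyrins and protein 4.1, which bind the spectrin and actin skeleton underneath. Synaptic and dense-core vesicles carry transmitters and peptide hormones and are primed for release by dedicated proteins, while plexins, semaphorins and ephrins steer the growing axon. Outside neurons many such genes are held silent by the repressor REST, which binds an element called RE1.

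The windows around the start sites of 5 of the genes are shown because they include the 2 highest values of the group and 3 further genes of the axon, and because all 5 were off the floor in the same single library. Each window holds 300 bases, 250 before and 50 after the most upstream RefSeq start (GRCh38.p14), and CG pairs, where DNA methylation can sit, are in capitals. The windows are chr16:77788314-77788613 (plus strand) for VAT1L, chr12:40827934-40828233 (plus) for CNTN1, chr1:204828402-204828701 (plus) for NFASC, chr2:206443282-206443581 (plus) for ADAM23 and chr3:115623260-115623559 (plus) for GAP43.
VAT1L: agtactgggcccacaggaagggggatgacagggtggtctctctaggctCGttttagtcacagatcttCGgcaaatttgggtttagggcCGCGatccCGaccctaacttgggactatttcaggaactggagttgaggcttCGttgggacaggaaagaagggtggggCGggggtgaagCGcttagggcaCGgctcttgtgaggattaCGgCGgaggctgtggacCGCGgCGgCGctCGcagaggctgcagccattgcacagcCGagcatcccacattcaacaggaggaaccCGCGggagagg
CNTN1: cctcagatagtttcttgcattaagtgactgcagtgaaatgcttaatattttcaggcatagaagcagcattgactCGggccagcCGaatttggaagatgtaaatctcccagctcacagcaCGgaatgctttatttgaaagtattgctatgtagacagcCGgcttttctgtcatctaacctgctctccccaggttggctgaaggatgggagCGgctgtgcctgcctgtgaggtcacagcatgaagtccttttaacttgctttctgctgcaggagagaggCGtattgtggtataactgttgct
NFASC: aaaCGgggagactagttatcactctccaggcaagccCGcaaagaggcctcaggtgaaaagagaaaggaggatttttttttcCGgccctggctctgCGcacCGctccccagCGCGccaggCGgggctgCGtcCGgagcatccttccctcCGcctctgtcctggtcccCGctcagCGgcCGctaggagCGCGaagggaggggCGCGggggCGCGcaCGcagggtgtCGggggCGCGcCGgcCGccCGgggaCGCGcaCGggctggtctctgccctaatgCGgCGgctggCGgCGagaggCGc
ADAM23: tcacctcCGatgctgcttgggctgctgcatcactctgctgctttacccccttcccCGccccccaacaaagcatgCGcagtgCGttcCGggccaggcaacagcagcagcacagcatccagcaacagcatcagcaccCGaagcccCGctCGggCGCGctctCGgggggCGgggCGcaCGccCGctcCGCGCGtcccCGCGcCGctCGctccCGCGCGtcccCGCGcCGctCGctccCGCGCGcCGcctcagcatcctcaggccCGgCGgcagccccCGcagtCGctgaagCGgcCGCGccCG
GAP43: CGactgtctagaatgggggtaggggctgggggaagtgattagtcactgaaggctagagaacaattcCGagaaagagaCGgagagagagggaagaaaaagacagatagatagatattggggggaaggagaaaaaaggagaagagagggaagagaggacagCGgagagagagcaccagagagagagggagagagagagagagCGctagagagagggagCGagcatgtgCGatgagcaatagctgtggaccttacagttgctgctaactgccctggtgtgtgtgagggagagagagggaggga

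These windows differ widely in CG pairs, so the 5 genes share no one type of promoter by this measure. ADAM23 has 41 CG pairs and NFASC 35, more than 93.5% and 86.1% of the 27305 promoter windows of RefSeq genes, whose median is 13. VAT1L has 19. GAP43 and CNTN1 have 7 and 6, and 37.5% and 34.4% of windows have fewer. The genes of the table are richer in CG pairs than RefSeq windows at large. Their 10589 matched windows have a median of 26 and quartiles of 18 and 34. Beside these, GAP43 and CNTN1 are poor in CG pairs, VAT1L is near the lower quartile and NFASC near the upper. CNTN1 and NFASC each have a second listed start, and the table of counts does not say which was used. Parts of the RE1 element were searched on both strands as CAGCACC and GGACAGC, which do not overlap. The window of ADAM23 holds the first and that of GAP43 the second, while 7.63% and 6.09% of all windows hold them, and neither was found in the other 3 windows shown. Promoter windows could be matched for 95 of the 127 genes (74.8%). That is under the 80% set for such a check, so a comparison of promoters over the whole group is void.

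The number of genes seen in 1 library alone was set beside the same count for each library. With hairpin 32-9 it was 127 of 13745 genes (0.924%). The control library had 66 (0.48%), led by SULF1 at 2869.2. The 2 senescent libraries had 0 and 0, and BRD7 knockdown had 0. Of the other hairpins against lncRNA-OIS1, 32-2 had 2 (0.0146%), 32-3 had 0 and 32-8 had 3 (0.0218%), and p53 knockdown had 2 (0.0146%). With a limit of 200 in place of 40 the counts were 28 with hairpin 32-9, 13 in the control and 0 in each of the other 7 libraries. By the rule, the 3 other hairpins against the same RNA gave no value above 20 for these genes. In bulk RNA, more cells that express a gene and more RNA per cell cannot be told apart. The difference between hairpin 32-9 and the other hairpins has no replicate check.

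**Figure D1:**
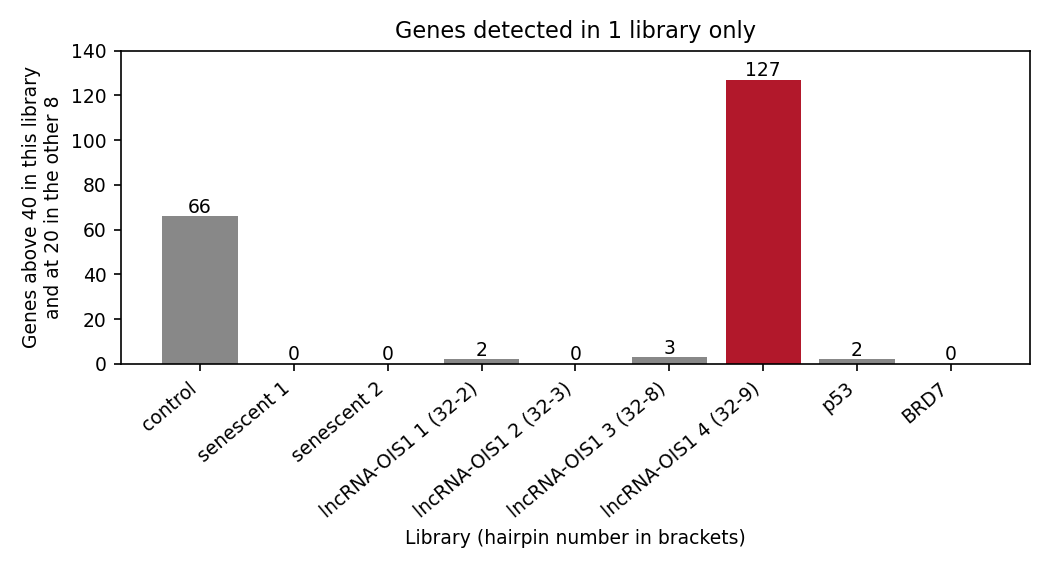
Number of genes with a value above 40 in 1 library and 20 in the other 8, by library, with symbols left out by the same rule. Hairpin 32-9 has 127 such genes and the control library 66, and no other library has more than 3.

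Values of the 127 genes with hairpin 32-9 ran from 40.7 to 2708.7 with a median of 87.1, a median of at least 4.35-fold over the floor (log2 2.12). Since 20 is a floor, these folds are lower bounds. In the library 54 of the genes were above 100, 28 above 200, 6 above 500, and 12 above the library's own median of 340.1. Together they made up 0.142% of the library's total value, and the 10 highest took 39.5% of that sum. Most of the group was thus low, with a short list of abundant genes. Nearest to the limit, SPTLC3, DNER, SLAMF7, KRT19 and GPC6 were just inside at 41.8, 41.8, 41.6, 40.7 and 40.7. KLHL13, NTN1, CASS4, ENSG00000250041 and OGDHL were just outside at 39.1, 39.1, 39.1, 39.0 and 38.3.

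VAT1L (ENSG00000171724), of the family of the vesicle protein VAT1, had the highest value. It stood at 2708.7 with hairpin 32-9, above 92.3% of all genes of that library, and at 20 in the control, both senescent libraries, hairpins 32-2, 32-3 and 32-8, p53 knockdown and BRD7 knockdown. That is at least 135-fold over each of them. CNTN1 (ENSG00000018236), the adhesion molecule contactin 1 of axons, followed at 1470.6 against 20 in each of the 8, at least 73.5-fold. SRGN (ENSG00000122862) encodes serglycin, the proteoglycan that packs secretory granules, and had 900.9 against 20 in each, at least 45-fold. No library overlaps hairpin 32-9 for any of the 127 genes, because the rule fixes this. Values scale with transcript length, so levels between genes were compared per kilobase of annotated exon. On that scale SRGN was first at 738, VAT1L had 655, CNTN1 196 and the antisense RNA ENSG00000262003 143. SYNDIG1 (137), GAP43 (96.8) and the cyclin gene CCNA1 (94.7) came next, and the median over 125 genes with a length was 16.4.

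For description the genes were sorted into 10 classes by known function, after their names were seen, and all but 26 of the 127 could be placed. A class is thus no evidence for itself, and no share of all genes was available to set beside it. The 3 neural classes, axonal membrane and neural adhesion, axon growth and guidance, and synapse and regulated secretion, held 36 genes (28.3%).

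**Figure D2:**
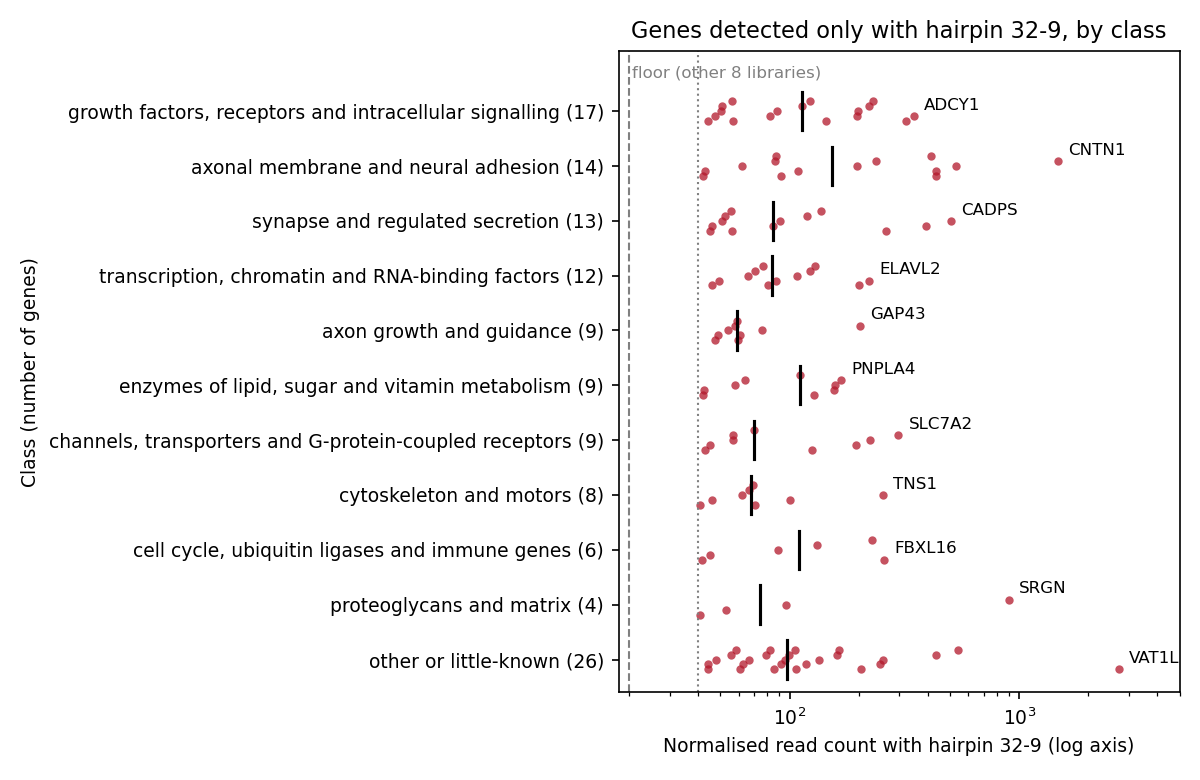
Normalised read count with hairpin 32-9 (log axis) of the 127 genes by class, with a black bar at the class median, the dashed line at the floor of 20 where all 127 genes sat in the other 8 libraries, and the dotted line at 40. Values are not per length, and class medians run from 59.1 to 153. The gene with the highest value of each class is named.

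The axonal membrane and neural adhesion class had 14 genes, a range of 41.8 to 1470.6 and a median of 153. Per kilobase of exon its median was 16.6, close to the 16.4 of all members with a length. After CNTN1, NFASC had 531.7. It encodes neurofascin, an adhesion protein of the axon's initial segment and nodes. ANK3, or ankyrin-G, which anchors neurofascin and sodium channels there, had 432.7. ADAM23 and ADAM22, members of the ADAM family that act in adhesion rather than as proteases, had 432.2 and 86.7. EPB41L3 encodes protein 4.1B, a link between membrane proteins and the spectrin skeleton, and had 413.3. The members thus include genes for proteins of the axon surface and of the skeleton beneath it. Some other axon surface genes were far above the floor in every library. The neural adhesion gene L1CAM was lowest in the library that defines the group, at 2772.1 against 4189 to 13545.8 elsewhere. The guidance receptor gene ROBO1 had 941.4 there, against 828.7 to 1963 elsewhere. Within the class the synaptic adhesion gene SDK1 had 237.8, the teneurin gene ODZ4 (now TENM4) 197.3 and NCAM1, the neural cell adhesion molecule, 108.6. GPM6B, a proteolipid of neurons and glia, had 92.0 and ASTN1, which guides neurons along glia, 87.0. CDH4, or R-cadherin, and DNER, a neuronal Notch ligand, were near the limit at 42.8 and 41.8.

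Genes of the synapse and of regulated secretion numbered 13, between 44.8 and 502.7 with a median of 84.9. CADPS, which primes dense-core vesicles for release, had 502.7, SYNDIG1, a protein of excitatory synapses, 390.9, and NETO1, an accessory subunit of glutamate receptors, 262.1. Amphiphysin (AMPH), which acts in vesicle endocytosis, had 137.0 and beta-synuclein (SNCB) 119.2. PCLO, the large scaffold of the presynaptic active zone, had 90.4 and the sortilin-family receptor SORCS2 84.9. The class thus holds genes of both sides of the synapse. It also holds genes of peptide hormone secretion. PTPRN, a membrane protein of dense-core granules, had 50.8, the secreted peptide precursor VGF 46.0 and the prohormone-cutting enzyme CPE 44.8. PPFIA2 and CTTNBP2, scaffolds of active zones and of dendritic spines, had 56.3 and 52.2, and MYRIP, an adaptor of secretory granules, 55.6.

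Axon growth and guidance had 9 genes, with 1 above 200. GAP43, the growth cone protein, had 202.1, and the other 8 lay between 47.4 and 75.7. They were KAL1 (now ANOS1), a matrix protein needed for olfactory axons, at 75.7, the semaphorin receptor PLXNA4 at 61, the Nogo receptor homologue RTN4RL1 at 59.4 and the polarity kinase BRSK2 at 59.1. SEMA6B, a semaphorin, had 57.8, DOCK3, an activator of Rac, 54.0, NGEF, which acts downstream of ephrin receptors, 49.0 and the ephrin EFNA5 47.4. Both a receptor and a ligand of the semaphorin system were therefore among the members, at low values. Some other genes of that system were far above the floor in every library. In the library that defines the group, the semaphorin SEMA3A had 7162.9, against 2557.9 to 12622.1 elsewhere. The plexin gene PLXNA1 had 2308.4 there, against 2294 to 3960 elsewhere. The semaphorin SEMA4A was at 20 in all 9 libraries.

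Transcription, chromatin and RNA-binding factors had 12 genes between 45.8 and 221 (median 83.7). ELAVL2, a neuronal RNA-binding protein, had 221, CREB5, a leucine-zipper factor, 200.2 and SOX5, a factor of cartilage and neurons, 129.1. The chromatin remodeller CHD7 had 122.2 and AFF2, a nuclear factor of the AF4 family, 108. The class also holds lineage factors. MSC, or musculin, had 87.1, EBF3 80.2, the LIM-homeobox gene ISL1 76.7, EYA4 71, the corepressor TLE2 65.7, the homeobox gene MSX2 49.1 and RUNX3 45.8.

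Growth factors, receptors and intracellular signalling formed the largest named class, with 17 genes and a median of 113. Among ligands FGF7, a fibroblast-made factor for epithelium, had 82.4 and FIGF (now VEGFD), a lymphatic growth factor, 56.6. Among receptors the tyrosine kinase ALK, known from the developing nervous system, had 231.2, IL17RD, which dampens FGF signalling, 198.8 and the hedgehog transducer SMO 43.9. The class also holds enzymes of cyclic nucleotide signalling and their regulators. ADCY1, a calcium-stimulated adenylyl cyclase of neurons, had 346.4, PKIB, an inhibitor of protein kinase A, 113.4 and PRKG2, a kinase driven by cyclic GMP, 56.3. PIK3R6, a regulatory subunit of PI3-kinase, had 322.3 and the kinase STK26 221. SESN3 and RRAGD, which act on the nutrient-sensing kinase mTORC1, had 196 and 88.4. AMOT, a regulator of YAP, had 143.6 and PMEPA1, a feedback inhibitor of TGF-beta signalling, 122.8. HUNK, PLEKHG1 and RADIL had 50.2, 51 and 47.2.

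Channels, transporters and G-protein-coupled receptors had 9 genes. SLC7A2, a carrier of cationic amino acids, had 296.4, the adhesion receptor GPR56 (now ADGRG1) 224.3 and the potassium channel KCNK1 194.9. SLC24A3, a sodium-calcium exchanger, had 125.2 and SLC1A3, the glutamate carrier of astrocytes, 70. The sensory-neuron receptor MRGPRX4 had 56.8. SLC22A23 and SLC16A9 were near the limit at 44.8 and 42.8.

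The remaining classes had fewer genes of neurons. Besides SRGN, the proteoglycan and matrix class had the glypicans GPC4 (96.2) and GPC6 (40.7) and the protease ADAMTS9 (53). Among cytoskeleton and motor genes TNS1, a focal adhesion protein, had 255, the neurofilament NEFL 99.9, the muscle protein PDLIM3 70.6 and the neuronal septin SEPTIN3 66.8. DNAH14 and DNALI1, dynein chains of cilia, had 69.3 and 62, the cytoplasmic dynein subunit DYNC1I1 46.1 and the epithelial keratin KRT19 40.7. Enzymes had 9 genes from 41.8 to 167.6, none above 200. PNPLA4, a lipase, had 167.6, HPGD, which breaks down prostaglandins, 157.3, and B4GALT6, which makes lactosylceramide, 155.4. GALNT14 and GALNTL4 (now GALNT18), which start O-glycans, had 128.1 and 57.7, the carbonic anhydrase CA13 111.3, CLYBL, a mitochondrial lyase, 42.4 and the sphingolipid enzyme SPTLC3 41.8. CCNA1, a cyclin best known from the germ line, had 227.3 and the F-box gene FBXL16 257.1. The ubiquitin ligases RNF125 and RNF128 had 131.7 and 44.8, AIM2, a sensor of cytosolic DNA, 88.9 and SLAMF7, a leukocyte receptor, 41.6.

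The 26 genes that were not placed lay between 43.9 and 2708.7 with a median of 97.6. After VAT1L they were led by BTBD11 (now ABTB3) at 538.9, WSCD1 at 433.9, CPNE8 at 255.4, JAKMIP2 at 248.3 and SOBP at 203.6. ENSG00000262003 (117.4) and ENSG00000265579 (48) are annotated as antisense and sense-intronic RNAs. The sources name no strand setting for the counts, so their reads cannot be told apart from those of the genes they overlap. In the RefSeq order of the table's genes 125 of the 127 could be placed, and 2 pairs were direct neighbours, TMEM229B with PLEKHH1 and PNPLA4 with KAL1. No other members adjoined each other in this order.

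The genes of the group were long. The rule did not use length, but reads are counted over exons, so a long transcript clears a limit on counts more easily. Their median span from first to last annotated base was 125.8 kb, against 32.3 kb for all genes of the table, 35.8 kb for the genes detected only in the control and 20.7 kb for 213 other genes at 20 in the same 8 libraries that stayed at 40 or less with hairpin 32-9. A span above 200 kb was found for 42 of 125 genes (33.6%), against 7.93% of all genes, 9 of 63 of the control's own genes (14.3%) and 23 of 203 of the other genes at 20 in those libraries (11.3%), counting genes with an annotated span. GPC6 spans 1181 kb, SOX5 1033 kb and SDK1 968 kb. Exon length differed less, with a median of 6.32 kb against 5.05 kb for all genes, 4.79 kb for the control's own genes and 3.55 kb for the 213. Of the 125 with an annotated type, 123 were protein-coding (98.4%, against 90.9% of all genes).

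The group was also read against 14 gene lists and 16 symbol families, chosen with earlier results of these data known. On any list were 14 of the 127 genes (11.0%), against 1.59% of all genes of the table. The list of neural and glial markers has 14 genes, of which 7 had a row. Of these 7, 3 belonged to the group (GAP43, NEFL and NCAM1), against the background of 0.924%. These 3 are off the floor only in the library that the rule used, so the share is a description and tests nothing. None of the other 4 was over 2-fold above every other library. NES, the intermediate filament nestin, was highest with hairpin 32-9, at 14455.7 against 5364.7 to 10675.7. TUBB3, the neuronal tubulin, had 47.8 against 20 to 136.1, and MAP2, of dendrites, 119.3 against 69.8 to 393.3. SNAP25, a core protein of transmitter release, was at 20 with hairpin 32-9. The summed value of the 7 was 15053 with hairpin 32-9 and 5696 to 11169 elsewhere, most of it from NES. The part of neural cells in the result was not tested.

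Markers of other cell types were read beside the same background of 0.924%. At that share lists this short would hold few or no members, so a count of 0 says little. Of 6 epithelial markers 1 belonged to the group (KRT19), with a summed value of 1284 against 1595 to 4255 elsewhere. Leukocyte (2), endothelial (1), muscle (5), adipocyte, cartilage and bone (3) and mesenchymal (18) markers had 0. PTPRC, which all leukocytes carry, and the muscle filament DES were at 20 with hairpin 32-9. The summed value of the leukocyte markers was 45.1 against 61.3 to 196.5, of the endothelial marker 50.8 against 22.2 to 266.9, and of the muscle markers 3353 against 1432 to 3969. That of the adipocyte, cartilage and bone markers was 2018 against 538 to 1679. In that list SOX9, a cartilage factor, had 1276.9 against 53.3 to 798.4, PPARG, an adipocyte factor, 372.6 against 36.2 to 308.9, and RUNX2, a bone factor, 368.9 against 319.8 to 717.4, with the control the one library below it. The mesenchymal sum was 200822 against 137068 to 208775. No pluripotency or germ cell marker of the list had a row in the table. Among symbol families, solute carriers had 5 of 243 and ADAM and ADAMTS genes 3 of 32. C2H2 zinc fingers had 0 of 523, cytochrome P450 and aldehyde dehydrogenases 0 of 31, and HLA genes and glutathione transferases 0 of 11 each. Over all genes the share was 0.924%, so a count of 0 in a family of 31 genes or fewer says little. Cadherins had 1 of 31 (CDH4), SOX and PAX genes 1 of 17 (SOX5), keratins and claudins 1 of 21 (KRT19) and interleukins and chemokines 1 of 49 (the receptor gene IL17RD). Homeobox genes of families such as IRX, LHX, DLX and MEIS had 0 of 28, a set that does not take in the homeobox members ISL1 and MSX2, and the cancer-testis family had 0 of 1. Placeholder names had 3 of 781 (FAM84A, FAM70B and TMEM229B). Of 2 matches to receptor prefixes GPR56 is a receptor of that family and PTGFRN is not, and the 1 match to clone names was the kinase ALK.

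Other genes of the lists were read by a fold, since hairpin 32-9 has 1 library. A gene was called higher when it stood over 2-fold above the highest of the other 8 libraries and lower when it was under 0.5 of the lowest, among 12481 genes with a value of at least 40 somewhere. By this 300 genes (2.4%) were higher and 224 (1.79%) lower, and the 127 genes are by their rule among the 300. These members passed the filter of 40 only through hairpin 32-9. The counts and medians of lists with members therefore include genes that were higher in advance, by the rule. The median of all genes tested moved by log2 0.00. Of 44 developmental transcription factors tested 8 were higher, 4 of them members of the group (EYA4, ISL1, MSX2 and SOX5), and 1 was lower, with a median of log2 0.59 against the median of the other 8 libraries. SHOX2, a homeobox gene of limb and face, had 263.7 with hairpin 32-9, 66.2 with p53 knockdown and 20 to 39.2 in the other 7. OSR1, a zinc finger factor of connective tissue, had 298.1 against 28.6 to 92.9. MKX, a homeobox gene of tendon, had 50.3 against 117.7 to 3255.

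Of 40 axon guidance and adhesion genes tested 5 were higher, 4 of them in the group (CNTN1, EFNA5, NCAM1 and PLXNA4), and 2 were lower, with a median of -0.01. ROBO2, a receptor for the guidance ligand SLIT, was just outside the rule, at 152.7 with hairpin 32-9, 34.6 with hairpin 32-8 and 20 in the other 7. LRRN3, a neuronal leucine-rich repeat protein, had 26.2 against 246.7 to 3704.3, and the semaphorin SEMA6D 144.7 against 322.3 to 2232.4. Neural adhesion and guidance genes thus moved in both directions. Of 29 WNT, BMP and hedgehog genes 3 were higher and 3 lower (median -0.07). FZD8, a WNT receptor, had 861.1 against 20 to 189.6, and NOG, the BMP antagonist noggin, 100.2 against 20 to 31.6. The Dickkopf family gene DKK3 had 1818.3 against 6714.1 to 15227.7, and the ligand WNT3 was at 20 against 79.2 to 158.8. Of 30 proteoglycan and elastic fibre genes 4 were higher, 2 of them in the group, and 1 lower (median 0.00). VCAN, a large matrix proteoglycan, had 2135 against 142.3 with p53 knockdown and 20 to 33.1 elsewhere, and the matrix gene EMILIN2 300.4 against 50.3 to 93.9. FBLN2, a fibulin, had 1285.6 against 2888.1 to 7443.3. Of 17 imprinted genes 0 were higher and 1 lower (median -0.22), NDN, at 20 against 500 to 822.8.

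**Figure D3:**
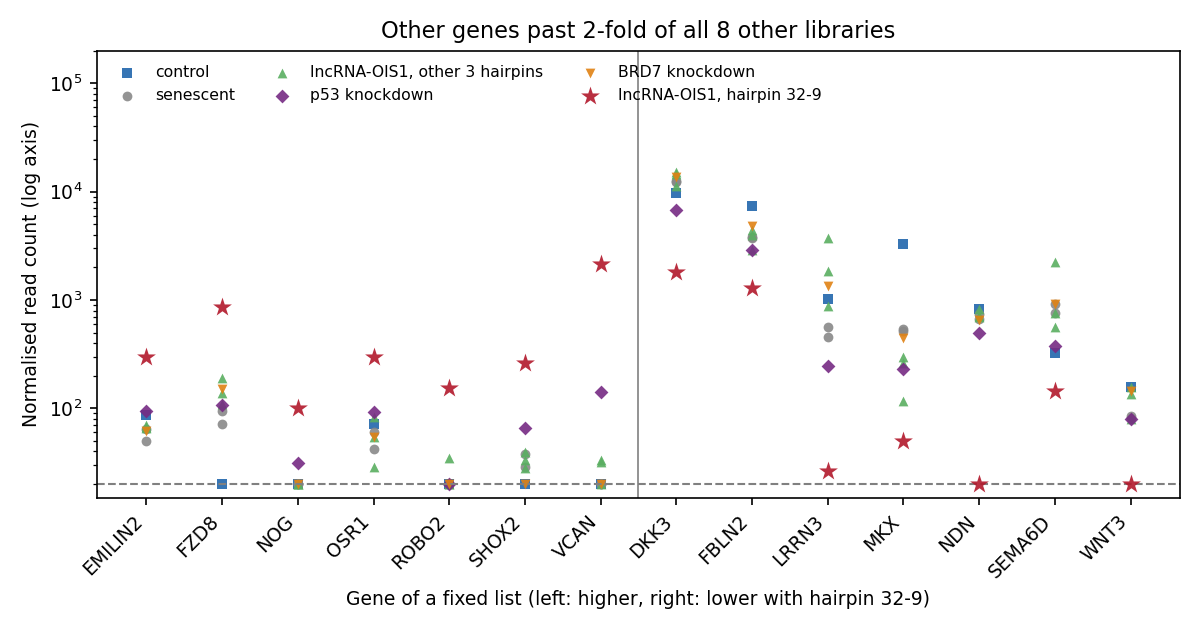
Normalised read count (log axis) in each of the 9 libraries for 14 genes of the lists that are outside the group and past 2-fold of all 8 other libraries, with the floor of 20 dashed. Hairpin 32-9 (stars) is the highest library for the 7 genes on the left and the lowest for the 7 on the right.

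The other 8 libraries were also ranked for the genes just described. Leaving 1 library out of the rule added 9 genes for the control and 9 for p53 knockdown, and 1 to 4 for each of the other 6. Of 161 genes that were higher and outside the rule, and not left out by name, p53 knockdown was the highest of the other 8 libraries for 62 (38.5%). Over all 12316 genes tested and not left out by name it was the highest of the 8 for 23.8%, ties counted for each library. The control was the highest for 10.6% of the 161 and 26.8% of all. Of 218 lower genes p53 knockdown was the lowest of the 8 for 69 (31.7%), against 21.3% of all genes, and the control for 32 (14.7%, against 31.5%). The calls used the highest and lowest values of the same 8 libraries. A gene with an extreme value in another library, such as the control, is harder to call, which shifts these shares in advance. They are thus no measure of likeness between hairpin 32-9 and p53 knockdown. The 127 genes of the group were at 20 with p53 knockdown, as the rule requires.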

How the data were processed

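PolyA RNA of 9 BJ fibroblast libraries was read from 1 deposited table of 13745 genes. The values are a signal per gene, read counts that the authors normalised before deposit. The submitters' processing notes name TopHat2, HTSeq and hg19 without versions or roles. All 9 columns hold the same sorted values (total 14916466.5) and none is under 20, from which quantile normalisation and a floor are read. Such values follow ranks, hide depth, and cap the fold of silent genes.

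Values were used as deposited with Python 3.11.15 and pandas 2.3.3. Missing and date-like symbols were replaced by current names of the Ensembl identifiers. The rule for members was checked on planted genes. Lists, families, the 2-fold rule and the members were chosen with earlier results of these data known. Named genes were the 25 highest members, those beside the limit, members on a list or in a family, neighbouring members, and up to 2 other genes per list and direction. The other members named were chosen after their values were seen, and so were the markers quoted to check the cell label or another cell type. SEMA3A, SEMA4A, PLXNA1 and L1CAM were chosen in the same way. Span, exon length and gene type came from GENCODE release 29 (GRCh38) by Ensembl identifier, promoter windows from RefSeq (GRCh38.p14) by symbol. Some members that entered the counts are not reported here by name. No test was run, since the rule used each value and hairpin 32-9 has 1 library. Alternatives changed the limits, floor, fold, pseudocount (10 and 50), scaling, filter and libraries.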

Additional observations from a re-analysis of the deposited data

Results flagged for a closer look

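All 127 genes had 1 of the 4 lncRNA-OIS1 libraries far from the other 3, a gap above Dixon's 95% limit, which their rule fixes. Of the 14 genes of the lists named outside the group, 7 had the same pattern, always in the hairpin 32-9 library: SHOX2 (263.7), FZD8 (861.1), NOG (100.2), ROBO2 (152.7), VCAN (2135), EMILIN2 (300.4) and NDN (20). The 14 were picked for a 2-fold distance in that library, so these are no independent sign. In normally distributed values chance alone gives such a gap in about 1 of 20 groups. That rate does not hold for values tied at a floor.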

How the results depend on the processing

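Of 69 alternatives, 45 left the value within 1.5 times of the reported count or within the spread of the genes, and 24 did not. The 127 genes became 215, 71 and 28 with limits of over 20, over 80 and over 200, 218 with up to 40 allowed elsewhere, and 28 with a mean of at least 40. Leaving out 1 of the other 8 libraries gave 128 to 136, median-of-ratios scaling 127, and leaving out LINC names by deposited symbol alone, an alternative chosen after seeing the data, 130. The hairpin 32-9 library itself cannot be left out. The control's 66 genes became 193 with over 20, 33 with over 80 and 118 with up to 30 allowed elsewhere. The highest count of the other 7 libraries, 3, became 36, 1 and 1 with over 20, 60 and 80, and 8 and 19 with up to 25 and 30 allowed elsewhere. The 300 higher genes became 495, 163 and 116 with folds of 1.5, 3 and 4 and 165 with a pseudocount of 50, and the 224 lower ones 471, 87, 50 and 95. Without 1 library these were 301 to 358 and 225 to 298. Members on a list fell from 14 to 6 with a limit over 80, and those in a family went from 20 to 40 with over 20 and 11 with over 80. Hairpin 32-9 had more such genes than any other library at limits of 20, 60, 80 and 200 and with up to 25 or 30 allowed elsewhere. No paired analysis was possible because the results come from no test.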
